A study of Rattus norvegicus with 2 samples.

Results

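Genes of the Nodal and Activin signalling pathway were examined in rat (Rattus norvegicus) embryonic stem cells. The 8 genes are Nodal, Lefty1, Tdgf1, Smad2, Smad3, Acvr1b, Acvr2a and Acvr2b, taken by gene symbol, and all 8 had 1 row each in a table of 23282 genes. Total RNA was the starting material of 2 sequenced libraries, both wild type, which the series describes as biological replicates. They came from the Dark Agouti line DA-EC8/Rrrc at passage 30, with a karyotype labelled normal, kept without treatment in 2i medium, whose inhibitors block the kinases MEK and GSK3. Both libraries form 1 group of 1 line, so no contrast between conditions and no test between groups exists. Nothing in the labels says that the 2 libraries came from separate cultures, and the spread between them may be technical.

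Nodal and the activins are secreted ligands of the TGF-beta family. They bind a type II receptor, which recruits and activates a type I receptor, and this phosphorylates Smad2 and Smad3, which join Smad4 and enter the nucleus. Nodal also needs a co-receptor of the Cripto family, which the activins do not need, and it induces its own antagonists, the Lefty proteins. In mouse, the pathway maintains the primed pluripotent state of the postimplantation epiblast and specifies mesoderm and endoderm, while naive stem cells in 2i medium do not depend on it.

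All 8 genes were detected, at levels spread over a wide range. Levels are given in RPKM, which divides reads by the length of the gene model and by the size of the library, so that genes of different length can be set side by side. All 8 reached a mean of at least 1 RPKM, the level counted as detected here, which 46.4% of all genes of the table reached. Of them 7 reached 10 RPKM, against 29.4% of all genes. The median of the 8 genes was 28.0 ± 0.614 RPKM (SD, n = 2), against 0.539 RPKM over all genes and 16.7 RPKM over the 10814 detected genes. The gene for the co-receptor was highest, followed by those for the antagonist, the ligand, the type I receptor, Smad2 and both type II receptors, with Smad3 far below.

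**Figure D1:**
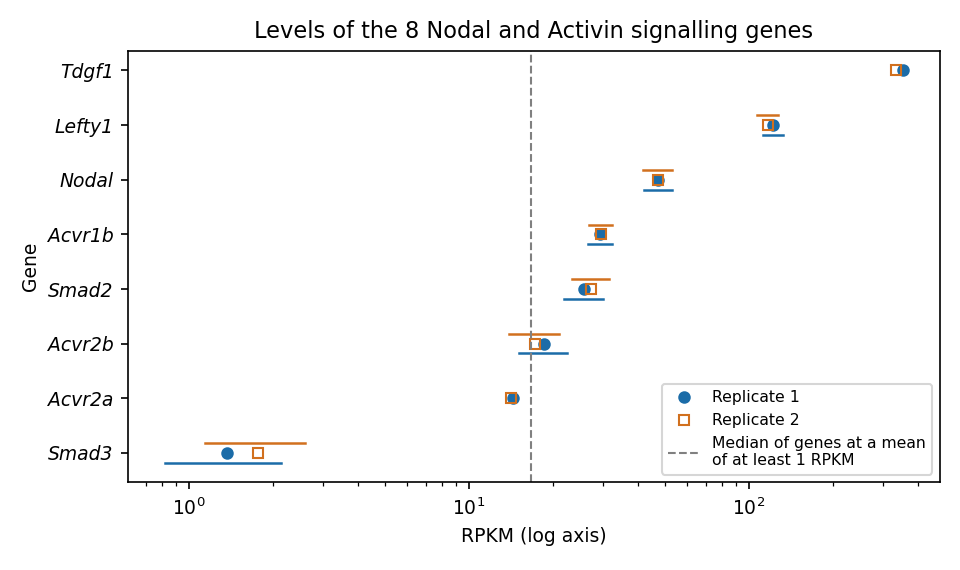
RPKM on a log axis for each of the 8 genes, with a filled circle for replicate 1 and an open square for replicate 2. Horizontal lines are exact Poisson 95% intervals for the 6 genes whose reads could be recovered, and the dashed line at 16.7 RPKM is the median of detected genes. Tdgf1 stands highest, at 355 and 334 RPKM, and Smad3 stands lowest, under 2 RPKM.

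The promoter windows of these genes were of unlike composition. Windows of 300 bases, 250 before and 50 after the transcription start, came from RefSeq on build GRCr8 and matched 7 of the 8 genes by gene ID. The 4 printed here contrast the ligand and co-receptor genes with the genes of both receptor-activated Smads, each 5′ to 3′ on the gene's strand, with CG dinucleotides in capitals. Nodal lies at chr20:29911008-29911307 on the plus strand, Tdgf1 (Cripto in RefSeq) at chr8:119808665-119808964 on the minus strand, Smad2 at chr18:72125094-72125393 on the plus strand and Smad3 at chr8:73132275-73132574 on the minus strand.
Nodal: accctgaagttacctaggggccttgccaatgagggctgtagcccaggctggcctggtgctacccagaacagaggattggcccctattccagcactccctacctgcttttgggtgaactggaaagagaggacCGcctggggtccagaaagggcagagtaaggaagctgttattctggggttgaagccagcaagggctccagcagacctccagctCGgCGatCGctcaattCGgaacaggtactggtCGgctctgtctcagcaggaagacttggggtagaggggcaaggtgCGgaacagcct
Tdgf1: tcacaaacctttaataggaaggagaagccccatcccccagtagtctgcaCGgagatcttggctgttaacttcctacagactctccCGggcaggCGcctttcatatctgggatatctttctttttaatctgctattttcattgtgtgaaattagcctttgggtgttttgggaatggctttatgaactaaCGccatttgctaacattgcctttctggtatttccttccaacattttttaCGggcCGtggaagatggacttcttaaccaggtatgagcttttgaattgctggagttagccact
Smad2: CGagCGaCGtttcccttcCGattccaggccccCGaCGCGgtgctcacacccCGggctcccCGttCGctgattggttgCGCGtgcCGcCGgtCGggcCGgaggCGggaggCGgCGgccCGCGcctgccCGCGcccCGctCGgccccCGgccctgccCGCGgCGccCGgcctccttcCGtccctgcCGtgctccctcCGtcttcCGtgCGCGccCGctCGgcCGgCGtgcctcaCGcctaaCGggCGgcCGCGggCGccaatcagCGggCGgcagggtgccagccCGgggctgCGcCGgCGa
Smad3: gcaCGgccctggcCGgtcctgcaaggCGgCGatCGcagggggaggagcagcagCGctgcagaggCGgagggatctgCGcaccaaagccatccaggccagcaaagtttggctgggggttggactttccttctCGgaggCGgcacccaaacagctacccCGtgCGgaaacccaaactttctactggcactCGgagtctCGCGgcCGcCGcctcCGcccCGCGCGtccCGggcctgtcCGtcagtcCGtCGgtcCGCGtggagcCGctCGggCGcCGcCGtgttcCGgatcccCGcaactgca

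The Nodal window held 7 CG dinucleotides and the Tdgf1 window 6, close to the median of 7 over all 33469 windows of the table, of which 94.5% held at least 1. Both windows of Smad2 held 52, more than 99.5% of all windows did. The windows of Acvr1b, Acvr2b and Smad3 held 45, 38 and 34, and that of Acvr2a held 19, the upper quartile of all windows. The G and C share was 43.7% for Tdgf1, 51.0% for Acvr2a and 58.3% for Nodal, and 69.7% for Smad3, 77.3% for Acvr2b, 78.0% for Acvr1b and 80.0% for the printed window of Smad2. The receptor genes thus did not form 1 class, with Acvr2a below Nodal by this share. The order of CG content was not the order of expression. Tdgf1, with the fewest CG dinucleotides, had the highest RNA level, and the CG-rich Smad2 and Smad3 windows belong to genes at 26.5 and 1.56 RPKM. No measurement of chromatin or of factor binding accompanies these cells.

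Among the ligands, Nodal was expressed and the genes of the activin subunits were at or near 0. Nodal (Entrez gene 294503, rn5 chromosome 20, 32822880 to 32831247, plus strand) was at 47.5 (replicate 1) and 47.2 RPKM (replicate 2). The mean of 47.4 ± 0.199 RPKM lay above 78.1% of detected genes. The steps of the values gave 289 and 293 reads on a model of 2034 bp, with exact Poisson 95% intervals of 42.2 to 53.3 RPKM in replicate 1 and 42.0 to 52.9 RPKM in replicate 2. The replicates of Nodal stood close together, with an SD of 0.421% of the mean against a median of 4.09% over the 1095 genes within 1.25-fold of its level.

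Inhba, which encodes the subunit of activin A, was listed at 0 in both replicates, as was Inhbc. Inhbb, for the subunit of activin B, was at 0 and 0.210 RPKM, and Inhbe at 0 and 0.311 RPKM, each the value of 1 read. Such a 0 may be a failed estimate, since the ribosomal protein gene Rps6, which every cell uses, was listed at 0 as well. The steps of the values point to 2991184 reads behind the first library and 3050685 behind the second. For a gene model of 2 kb, the limit that no read allows is 3 reads, or 0.501 RPKM at the depth of replicate 1 and 0.492 RPKM at that of replicate 2. The related ligand gene Gdf3 was the highest of the 7 ligand genes, at 151 and 160 RPKM (155 ± 5.76 RPKM), 3.19-fold and 3.38-fold above Nodal. In mouse, Gdf3 and Gdf1 proteins act with Nodal through the same co-receptor. Gdf1 stood at 1.32 and 1.05 RPKM, but its row overlaps that of Cers1 on the same strand and both rows hold the same values, so the reads cannot be assigned to either gene. In all, 3 of the 7 ligand genes were detected with the Gdf1 row counted, and Nodal and Gdf3 alone without it. Over all genes 46.4% were detected.

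Of the proteases that cleave the Nodal precursor in mouse, Furin was at 39.8 and 40.0 RPKM and Pcsk6 at 37.3 and 35.4 RPKM. Both thus lay a little below Nodal itself. Pcsk5, a related convertase, was at 0.0546 and 0.161 RPKM.

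The co-receptor gene Tdgf1, which encodes Cripto, had the highest level of the 8 genes. Tdgf1 (Entrez gene 680246, rn5 chromosome 8, 118555010 to 118560094, minus strand) was at 355 (replicate 1) and 334 RPKM (replicate 2), at rank 131 of all genes, with a mean of 344 ± 14.2 RPKM. The level was 7.46-fold that of Nodal in replicate 1 and 7.08-fold in replicate 2, a difference of 2.84 ± 0.05 in log2(RPKM + 1). The SD was 4.13% of the mean, against a median of 1.87% over the 111 genes at a like level. Its values did not resolve into whole reads, so no counting interval is given. Cfc1, the other co-receptor gene of this family, was at 0.478 and 0 RPKM, the value of 1 read and none. The nearest neighbour of Tdgf1 in the table, RGD1564138, lay 507 bp beyond the 3′ end on the opposite strand and was at 71.7 and 63.3 RPKM, whereas Lrrc2 on the other side was at 0.933 and 1.70 RPKM.

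Receptor genes of both types were expressed at moderate levels. Acvr1b, which encodes the type I receptor ALK4 (Entrez gene 29381, rn5 chromosome 7, 140617642 to 140659246, plus strand), was at 29.3 (replicate 1) and 29.5 RPKM (replicate 2), from 402 and 413 reads, with a mean of 29.4 ± 0.152 RPKM. Acvr1c, for the alternative type I receptor ALK7, was at 1.82 and 2.08 RPKM, so that Acvr1b made up 94.2% of the summed level of both genes in replicate 1 and 93.4% in replicate 2. Acvrl1, a type I receptor gene of endothelial cells that ends 29.6 kb upstream of Acvr1b on the same strand, was at 0.191 and 0.561 RPKM.

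The genes of the type II receptors stood close together. Acvr2b (Entrez gene 25366, rn5 chromosome 8, 127294106 to 127325524, plus strand) was at 18.5 (replicate 1) and 17.2 RPKM (replicate 2). Acvr2a (Entrez gene 29263, rn5 chromosome 3, 38113728 to 38197531, plus strand) was at 14.4 (replicate 1) and 14.1 RPKM (replicate 2). The means were 17.8 ± 0.896 RPKM for Acvr2b and 14.3 ± 0.219 RPKM for Acvr2a. Acvr2b was 1.28-fold and 1.22-fold higher, a difference of 0.30 ± 0.05 in log2(RPKM + 1), and the values of the genes did not overlap. The counting interval of Acvr2b left out the value of Acvr2a in replicate 1, from 15.0 to 22.5 RPKM on 100 reads, and took it in in replicate 2, from 13.9 to 21.0 RPKM on 95 reads. The reads of Acvr2a itself could not be recovered. These receptors also bind bone morphogenetic proteins (BMPs), so their genes are not particular to Nodal signalling.

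Smad2 and Smad3, whose products are the receptor-activated effectors of the pathway, were expressed very unequally. Smad2 (Entrez gene 29357, rn5 chromosome 18, 71673318 to 71734563, plus strand) was at 25.7 (replicate 1) and 27.3 RPKM (replicate 2), from 162 and 175 reads. Smad3 (Entrez gene 25631, rn5 chromosome 8, 68274132 to 68397727, minus strand) was at 1.37 (replicate 1) and 1.76 RPKM (replicate 2), from 19 and 25 reads on a model of 4649 bp. Smad2 was 18.8-fold higher in replicate 1 and 15.5-fold higher in replicate 2, a difference of 3.43 ± 0.10 in log2(RPKM + 1). Their values did not overlap, and the Poisson intervals of 21.9 to 30.0 RPKM for Smad2 and 0.823 to 2.13 RPKM for Smad3 in replicate 1 were far apart.

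Smad3, at a mean of 1.56 ± 0.280 RPKM, lay above 5.29% of detected genes, and Smad2, at 26.5 ± 1.08 RPKM, above 63.4%. The Smad3 locus shares 10284 bp with the gene Aagab on the opposite strand, which was at 23.4 (replicate 1) and 30.8 RPKM (replicate 2). The shared stretch is the 3′ end of Smad3 and 8.32% of its genomic locus of 123596 bp. The RPKM value rests on a model of 4649 bp, and how much of that model lies in the stretch is not known here. The sources used here do not say that strand was used in counting, and without it reads from the shared stretch cannot be told apart. How much of the Smad3 value comes from Aagab was not tested. Smad4, the common partner, was above Smad2 at 40.1 and 37.2 RPKM, and Zfyve9, for the anchor protein SARA that presents Smad2 to the receptor, was at 11.9 and 13.3 RPKM, with an overlapping row on the opposite strand at 1.02 and 0 RPKM.

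**Figure D2:**
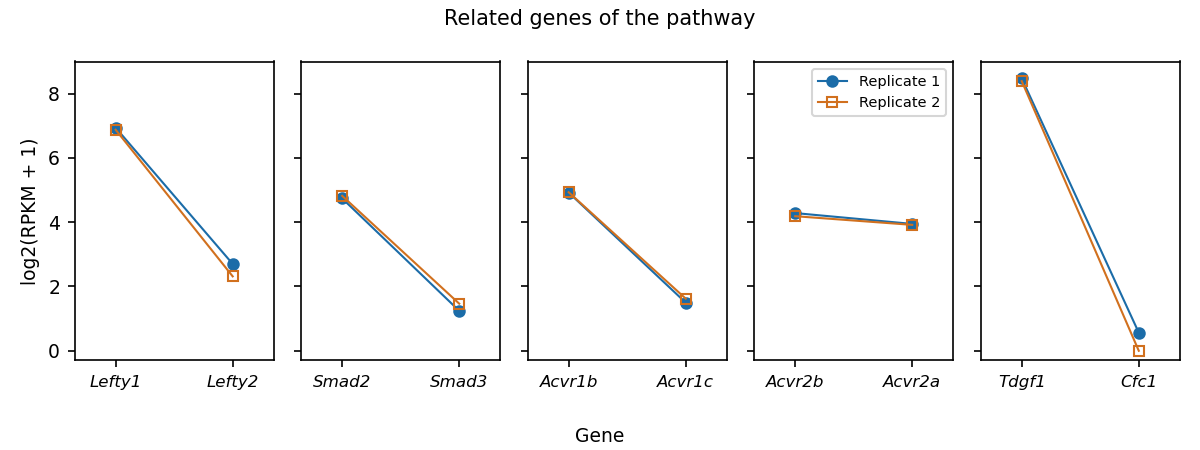
The value of log2(RPKM + 1) for 5 pairs of related genes, with a filled circle for replicate 1 and an open square for replicate 2, joined by a line within a replicate. Acvr2b and Acvr2a lie close together with a difference of 0.30, while Smad2 and Smad3 differ by 3.43 and Lefty1 and Lefty2 by 4.40.

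Among secreted antagonists, Lefty1 alone was abundant. Lefty1 (Entrez gene 498299, rn5 chromosome 13, 104212236 to 104215633, plus strand) encodes a protein that binds Nodal and its co-receptor, and stood at 122 (replicate 1) and 117 RPKM (replicate 2). These values rest on 573 and 559 reads on a model of 1572 bp, and the mean of 119 ± 3.74 RPKM lay above 93.2% of detected genes. The RNA of the antagonist thus exceeded that of its ligand Nodal 2.57-fold in replicate 1 and 2.47-fold in replicate 2, a difference of 1.31 ± 0.04 in log2(RPKM + 1). Protein levels were not measured.

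Lefty2, the paralog 36.0 kb away on the same strand, was at 5.50 and 3.98 RPKM, from 19 and 14 reads. Lefty1 was 22.1-fold and 29.3-fold higher, and made up 95.7% of the summed level in replicate 1 and 96.7% in replicate 2. The treatment of reads that match both paralogs is not given in the sources used here, so this split is uncertain.

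The genes for antagonists of activins were low. Fstl3 was at 2.60 and 3.40 RPKM, and Fst, which encodes follistatin, at 1.29 and 0.317 RPKM, which are 4 reads and 1 read. Inha, for the inhibin subunit, was at 0.239 and 0.469 RPKM. The Nodal antagonists of the Cerberus family were at the value of 1 read or none, with Cer1 at 0.196 and 0 RPKM and Dand5 at 0 and 0.295 RPKM. In all, 3 of 7 antagonist genes were detected, against 46.4% of all genes.

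**Figure D3:**
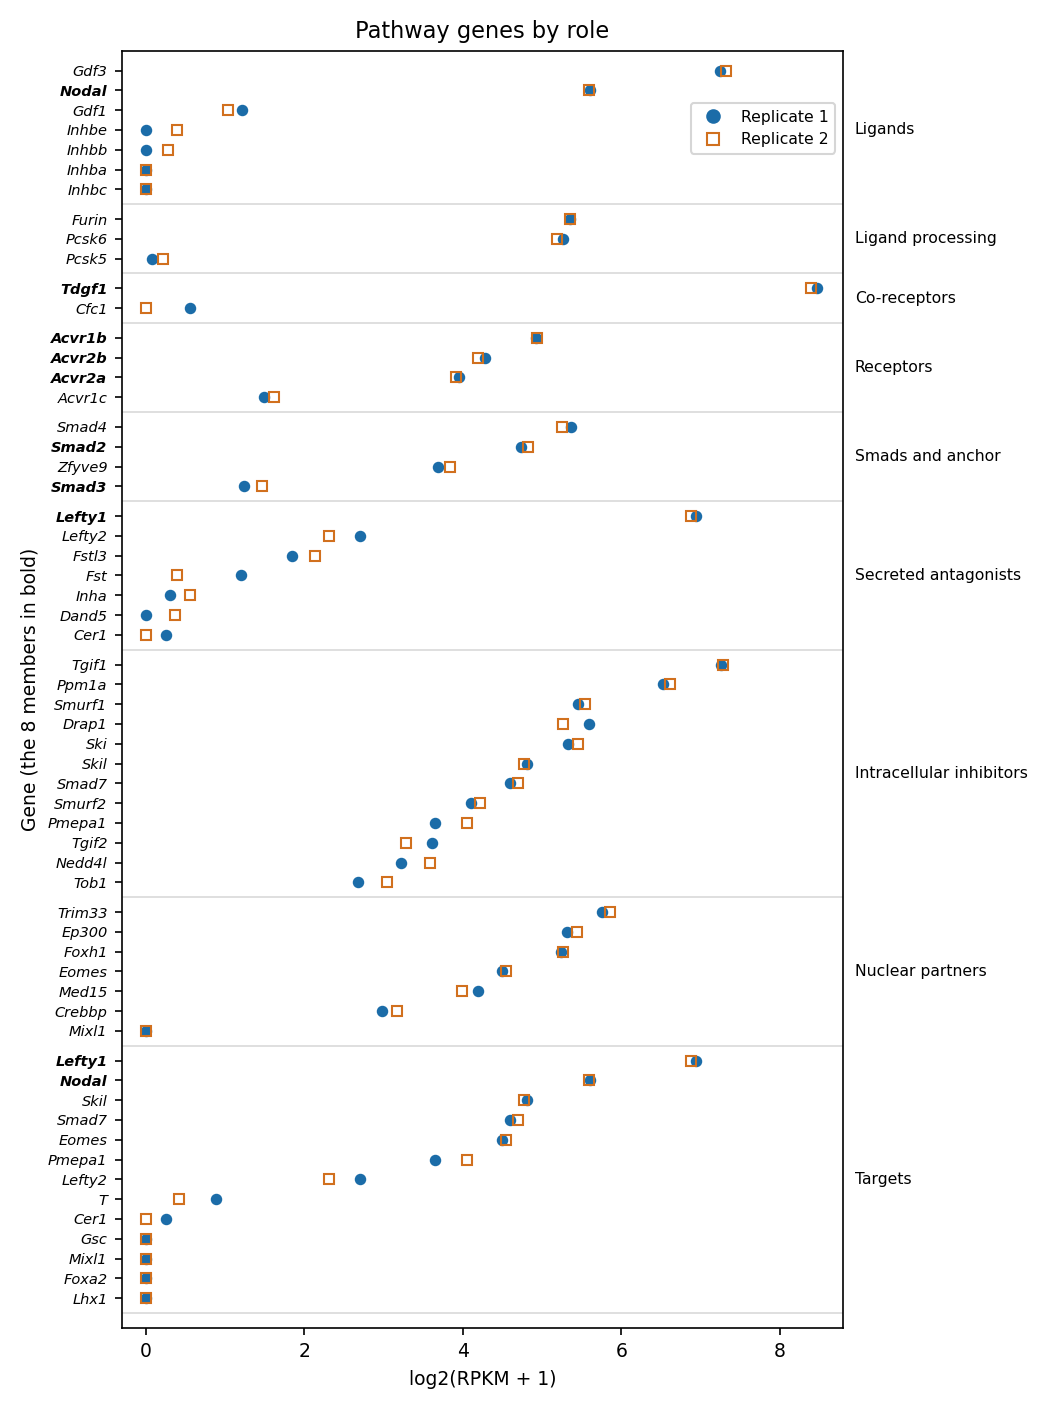
The value of log2(RPKM + 1) for the pathway genes named in the text, grouped by role from ligands at the top to targets at the bottom, with a filled circle for replicate 1, an open square for replicate 2 and the 8 genes of the set in bold. Genes with more than 1 role appear once in each. Ligands and secreted antagonists each hold 1 or 2 high genes and several at or near 0, whereas all 12 intracellular inhibitors lie above 2.

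Negative regulators inside the cell were detected throughout, and most nuclear partners were too. All 12 intracellular inhibitor genes reached 1 RPKM and 9 reached 10 RPKM, against 46.4% and 29.4% of all genes. Their median was 25.4 ± 0.394 RPKM. Tgif1, a homeodomain co-repressor of Smad2, was highest at 152 and 155 RPKM, 5.79-fold the mean of Smad2. Ppm1a, a phosphatase that acts on phosphorylated Smad2 and Smad3, was at 91.1 and 97.0 RPKM. The ubiquitin ligase gene Smurf1 (42.8 and 45.7 RPKM), Drap1, which restrains the Nodal partner Foxh1 in mouse (47.2 and 37.4 RPKM), and the co-repressor gene Ski (39.1 and 42.8 RPKM) followed. Smurf2 was at 16.2 and 17.7 RPKM, Tgif2 at 11.2 and 8.75 RPKM, the ligase gene Nedd4l at 8.32 and 11.1 RPKM and Tob1 at 5.41 and 7.23 RPKM. The rows of Ski, Tgif2 and Cer1 carry older symbols and were found by gene ID, while the row with the symbol Tgif2 belongs to an ID that RefSeq now lists as a pseudogene.

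Foxh1, the forkhead factor that carries Smad2 to Nodal-responsive enhancers, was at 36.6 and 37.3 RPKM, and its locus overlaps KIFC2 on the opposite strand, which was at 8.14 and 6.88 RPKM. Trim33, a chromatin reader that binds activated Smads, was at 53.0 and 57.1 RPKM. The coactivator gene Ep300 was at 38.7 and 42.6 RPKM, the Mediator gene Med15 at 17.2 and 14.9 RPKM and Crebbp at 6.87 and 8.01 RPKM. Of the 7 partner genes 6 were detected, against 46.4% of all genes. Mixl1, a partner and target in mesendoderm, was listed at 0 in both replicates.

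Known targets of the pathway were detected in part. Of 14 target genes 8 were detected and 6 reached 10 RPKM, against 46.4% and 29.4% of all genes, and the list median was 3.03 ± 0.858 RPKM. The list holds Nodal and Lefty1, which are themselves targets. The feedback inhibitors Skil, at 27.1 and 26.3 RPKM, Smad7, at 23.1 and 25.0 RPKM, and Pmepa1, at 11.6 and 15.6 RPKM, were detected, and so was the T-box gene Eomes, at 21.6 and 22.3 RPKM. The primitive streak gene T was at 0.847 and 0.332 RPKM, and Gsc, Foxa2 and Lhx1, genes of mesendoderm and its derivatives, were listed at 0 in both replicates, as was Mixl1. Each of these targets also answers to other signals, and levels in 1 condition do not measure the activity of the pathway.

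Across the 51 pathway genes of these lists, 36 were detected, 9 were above 0 but under 1 RPKM and 6 were listed at 0 in both replicates. Over all 23282 genes the counts were 10814 (46.4%), 3566 and 8902. The median was 12.6 RPKM over the 51 genes and 7.44 RPKM over the 43 of them outside the set of 8. The median of the set was thus higher than that of the rest of its pathway, a difference given with no test, since the genes were chosen with levels known.

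The genes of the parallel BMP and TGF-beta branches included Smads and type I receptors at levels near those of Smad2 and Acvr1b. Of 11 such genes 8 were detected and 5 reached 10 RPKM, against 8 and 7 of the 8 Nodal and Activin genes. Over all genes 46.4% were detected and 29.4% reached 10 RPKM. The replicate medians of the 8 genes were 27.5 and 28.4 RPKM, against 5.07 and 5.68 RPKM for the 11 genes. These sets are unlike in make-up, as the 8 include a ligand, a co-receptor and an antagonist gene, and the 11 are receptor and Smad genes only. The median of means was 16.1 RPKM over the 4 Nodal and Activin receptor genes, Acvr1c included. It was 19.6 RPKM over Smad2, Smad3, Smad4 and Zfyve9. Smad2 was at 25.7 and 27.3 RPKM, against 29.6 and 26.9 RPKM for the BMP effector gene Smad1, and the values overlapped. Bmpr1a, the highest of the 11 genes, was at 27.8 and 34.7 RPKM, a range that takes in both values of Acvr1b. Tgfbr1, the type I receptor gene of TGF-beta, summed over its rows, was at 24.8 and 25.6 RPKM, and Acvr1b was 1.18-fold and 1.16-fold higher. Smad5 was at 25.4 and 29.8 RPKM, whereas Smad9, the third BMP effector gene, was listed at 0 in both. With 1 group of 2 libraries, these differences were not tested.

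The order of the 8 genes was the same in both replicates, and for none of the 7 neighbouring pairs in that order did the values overlap. The smallest gap was 2.07 RPKM, between Acvr1b and Smad2, which differed 1.14-fold in replicate 1 and 1.08-fold in replicate 2. Their counting intervals overlapped in both libraries. Those of Smad2 and Acvr2b overlapped slightly in replicate 1, at 21.9 to 30.0 RPKM and 15.0 to 22.5 RPKM, and were apart in replicate 2, at 23.4 to 31.6 RPKM and 13.9 to 21.0 RPKM. Lefty1 and Nodal, and Nodal and Acvr1b, had intervals that did not overlap.

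**Figure D4:**
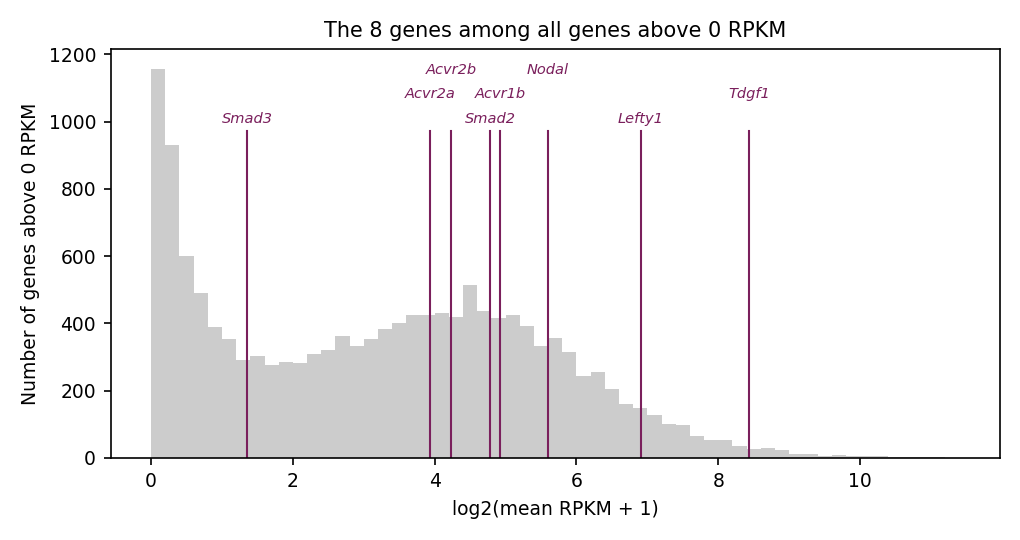
Histogram of log2(mean RPKM + 1) over all genes above 0 RPKM, with the number of genes on the vertical axis and a line at the level of each of the 8 genes. Tdgf1 and Lefty1 lie in the upper tail, 5 genes lie within the main mode and Smad3 lies between the low genes and that mode.

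None of the 8 genes differed by 1.5-fold or more between the replicates in RPKM + 1, a fold that 3.74% of all genes and 4.26% of detected genes passed. Of the 8 genes 5 were higher in replicate 1 and 3 in replicate 2. Smad3 had the largest relative spread of the 8, an SD of 17.9% of the mean, against a median of 23.0% over the 589 genes at a like level. Acvr1b, at 0.516%, and Acvr2a, at 1.54%, had little. As each SD rests on 2 values, a small one does not show that a gene is measured more precisely than its reads allow.

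The identity of the cells was checked on marker genes. All 7 stem cell markers reached 10 RPKM, against 29.4% of all genes. They were led by Utf1 (645 and 665 RPKM), Pou5f1 (591 and 577 RPKM) and Sox2 (175 and 180 RPKM). Markers of other cells were low, apart from the mesendoderm marker Eomes. Of 6 primitive endoderm markers only Sox17 was detected, at 1.15 and 1.27 RPKM, followed by Dab2 (0.212 and 0.104 RPKM) and Pdgfra (0.0513 and 0.101 RPKM), while Gata4, Gata6 and Sox7 were listed at 0. Of 6 mesendoderm markers only Eomes was detected, with Mesp1, Mixl1, Gsc and Foxa2 listed at 0. Eomes was not low, at 21.6 and 22.3 RPKM, a mean above 57.8% of detected genes. Of 5 trophectoderm markers only Cdx2 was detected, at 2.45 and 1.76 RPKM, ahead of Elf5 (0.494 and 0.161 RPKM) and Krt7 (0.162 and 0 RPKM), with Gata3 and Hand1 listed at 0. As the 0 of Rps6 shows, a 0 in any of the marker lists, fibroblast and feeder markers included, may be a failed estimate.

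The 6 fibroblast and feeder markers together had 5.84 RPKM in replicate 1 but 10.9 RPKM in replicate 2. Col1a1 was at 3.39 and 6.02 RPKM, Col3a1 at 1.32 and 3.16 RPKM and Thy1 at 1.01 and 1.73 RPKM, with Col1a2 and S100a4 listed at 0. Smad2, Smad3 and Acvr1b were also higher in replicate 2, the other 5 genes of the set were higher in replicate 1, and the part of feeder cells in these values was not tested. In whole-culture RNA, fewer cells that express a gene cannot be told apart from less RNA of it per cell.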

How the data were processed

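RNA was sequenced as paired 50-bp reads from 2 libraries of 1 wild-type group, prepared with the TruSeq RNA kit v2, per the labels. The authors deposited RPKM per gene in 1 table, with positions on rn5 and 1 column per library, whose names match the titles. The submitters' processing notes name the tools CASAVA 1.8 and TopHat 1.4.0. How reads were counted, whether strand was used and how reads with several matches were treated is not given in the sources used here.

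The 23716 rows were summed by Entrez ID to 23282 genes. Genes of the lists were matched by the RefSeq ID of their symbol where the table holds it, which found 3 genes under older symbols, and otherwise by the table's symbol. As RPKM values are no counts, count models were not used, and with 1 group no test was made. Means and SDs are over 2 replicates, and differences use log2(RPKM + 1), which understates those of low genes. The 8 genes, the lists and the pairs compared were chosen with earlier results of these data known. The text names every gene of the 9 pathway lists, and of the other lists the 3 highest and those listed at 0, except that 1 gene this rule takes is not reported here, though list counts and medians include it. Comparisons of Lefty1 with Lefty2, of Acvr1b with Acvr1c and Acvrl1, of Gdf3 with Nodal, of Tgif1 with Smad2, and of this set with single BMP and TGF-beta genes, Tgfbr1 included, and the CG counts, were added after values were seen.

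The steps of the values at loci under 6000 bp gave 2991184 reads for replicate 1 and 3050685 for replicate 2. Candidate totals were kept where the number of whole loci came near the largest, and the best at or just above the smallest of them was taken. Under these totals 527 of 2700 loci came out whole in replicate 1 and 525 of 2688 in replicate 2, with the locus taken as the model. Whole reads in both libraries came out for 79.8% of 12970 rows above 0 in both, within a relative tolerance of 3e-07, with the shortest model length from 60 bp to 20000 bp that fitted. For the set this gave 6 of 8 genes. Lengths and totals can be too small by a whole factor; reads are then too few, and intervals and floors too wide. At this tolerance, genes with very many reads can come out whole by chance, so reads are printed only for genes with at most 573. Intervals and floors cover counting error only and take each read as independent. If both reads of a pair were counted, which the sources used here do not say, intervals are too narrow and floors too low. Alternatives were detection at 0.3 or 3 RPKM, a pseudocount of 0.1, each replicate alone, libraries rescaled to a sum of 1000000, and the highest row per gene. Versions were 2.4.6 for numpy, 2.3.3 for pandas, 1.17.1 for scipy and 3.10.9 for matplotlib, under Python 3.11.15.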

Additional observations from a re-analysis of the deposited data

How the results depend on the processing

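The 4 differences between genes could not change sign under the alternatives run on them, so their constant sign is no support. Within a library the pseudocount does not alter which gene is higher, and both replicates had the same order. Rescaling each library to a sum of 1000000 raised every level by a common factor per library and so left the order as it was, with Tdgf1 at 788, Lefty1 at 273, Nodal at 108, Acvr1b at 67.3, Smad2 at 60.6, Acvr2b at 40.8, Acvr2a at 32.6 and Smad3 at 3.58, and a median of 63.9. With a pseudocount of 0.1 the difference between Smad2 and Smad3 was 4.01 in log2, as a smaller pseudocount shrinks low values less. At a detection minimum of 0.3 RPKM 5 secreted antagonist genes counted as detected in place of 3. With 1 replicate left out, the median of the 8 genes lay between 27.5 and 28.4 RPKM and all 8 stayed detected, while 3 or 4 secreted antagonists, 7 or 8 targets and 7 or 8 BMP and TGF-beta genes were. With 2 replicates, a level or difference from 1 of them cannot leave their spread, and each of the 8 genes has 1 row, so neither leaving out a replicate nor taking the highest row bears on the stability of those values. At 3 RPKM 7 of the 8 genes and 2 ligand genes counted as detected. No paired analysis was possible because the series holds 1 group. Depth limits the low genes, among them Smad3 with 19 and 25 reads and Fst with 4 and 1, since 3 reads in a model of 2 kb come to 0.501 (replicate 1) and 0.492 RPKM (replicate 2).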
